A study of Mus musculus with 9 samples.

Results

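The genes described here are 41 macrophage, antigen presentation and leukocyte genes of the mouse heart. They were taken by gene symbol from a given list, with no threshold on the measured values, out of 13646 genes that stand in both deposited gene tables. All 41 were found in both tables, and none was listed at 0 in any library. By role they fall into 8 groups: MHC class II presentation (6 genes), MHC class I presentation (5), resident macrophage surface proteins with a clotting factor (6), macrophage and lysosome proteins (5), complement (5), chemokines (4), growth factor and cytokine receptors with a ligand (4), and pan-leukocyte proteins and adaptors (6).

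Hearts were compared in male C57BL/6 mice, labelled 10 weeks old, at 21 days after surgery, with 3 libraries a group. The TAC+PUE group had transverse aortic constriction (TAC), a ligature that narrows the aortic arch and puts the left ventricle under pressure, and puerarin (PUE), an isoflavone of kudzu root, injected into the peritoneum at 100 mg/kg each day, beginning 3 days ahead of TAC. The TAC group had the constriction with saline injections. The sham group had saline and the operation with no constriction. Nothing in the labels names a ventricle or an atrium, so each library stands for a heart as harvested.

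Macrophages live in the healthy heart as a long-lived resident population, and monocytes from blood add to them when the ventricle is overloaded. MHC class II molecules, made by macrophages, dendritic cells and B cells, show peptides of engulfed proteins to helper T cells, whereas class I molecules, made by nearly every cell, show peptides of the cell's own proteins and need beta-2 microglobulin (B2m) to reach the surface. Complement C1q is made largely by tissue macrophages. In these libraries of whole heart tissue, fewer cells of a type and less RNA of a gene per cell cannot be told apart.

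Values are FPKM (fragments mapped to a gene, scaled by transcript length and by the library's mapped fragments), and their sum over a library was 239798 to 251385 under TAC+PUE, 187548 to 220732 under TAC and 259491 to 287871 in sham. The 13 mitochondrially encoded mRNAs took 14.2 to 25.9% of it under TAC+PUE, 2.81 to 7.04% under TAC and 31.6 to 42.9% in sham, and the rRNA-like transcripts Gm26917 and Gm42418 took 1.11 to 2.52% under TAC+PUE, 4.81 to 7.49% under TAC and 0.519 to 1.11% in sham. The atrial myosin light chain Myl7 was at 27.4 to 708 FPKM under TAC+PUE, 1.60 to 198 FPKM under TAC and 0.857 to 1.07 FPKM in sham. All 12 cardiomyocyte markers were present, with a sum of 12900 to 14000 FPKM under TAC+PUE, 17300 to 18800 FPKM under TAC and 11700 to 13200 FPKM in sham. Of these markers 2 rose and 5 fell in TAC+PUE against TAC, and 7 rose and 3 fell in TAC against sham. Changes are given as log2 fold changes of FPKM + 1, which understate changes of low genes. In the deposited FPKM the median change over the genes tested was 0.24 in TAC+PUE against TAC, 0.11 in TAC+PUE against sham and -0.12 in TAC against sham. Scaled by median ratios, the median in TAC against sham became 0.02, leaving Gm26917 and Gm42418 out it became 0.30, and leaving out the mitochondrial mRNAs too it became -0.23. For TAC+PUE against TAC these 3 scalings gave -0.05, -0.01 and 0.20, and for TAC+PUE against sham -0.01, 0.26 and -0.04. Members' changes are to be read against these medians.

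The members as a group were more abundant under TAC than in sham, and the members that moved under puerarin went in both directions. Their summed level was 1742 to 1968 FPKM under TAC+PUE, 1406 to 1850 FPKM under TAC and 925 to 1017 FPKM in sham. In TAC against sham, 24 of 39 members tested rose (61.5%, where 25.3% of all genes tested did) and 8 fell (20.5%, where 37.7% of all genes did), by limma at an adjusted p of 0.05, and either direction was called for 63% of all genes. Every TAC heart lay above every sham heart for 26 of the 41 members (63.4%) and below for 7 (17.1%), where the groups did not overlap in either direction for 70.3% of all genes. In TAC+PUE against TAC, 10 of 40 rose (25.0%, where 32.9% of all genes did) and 5 fell (12.5%, where 5.45% of all genes did), with 38.4% of all genes called in either direction. Every TAC+PUE heart lay above every TAC heart for 11 members (26.8%) and below for 7 (17.1%), where 53.5% of all genes had no overlap. In TAC+PUE against sham, 28 of 40 were higher (70.0%, where 14.6% of all genes were) and Cd163 alone was lower (2.70% of all genes were), with 17.3% of all genes called in either direction. TAC+PUE hearts lay above all sham hearts for 32 members (78.0%) and below for 6 (14.6%), where 42.6% of all genes had no overlap. The members' median log2 fold change was 0.67 in TAC against sham (all genes, -0.12), 0.22 in TAC+PUE against TAC (all genes, 0.24) and 0.71 in TAC+PUE against sham (all genes, 0.11). The TAC libraries enter both of the first comparisons, so their changes are not independent of each other. The members were chosen with earlier results of these data known, so their shares beside those of all genes describe the list and are not an independent test.

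**Figure D1:**
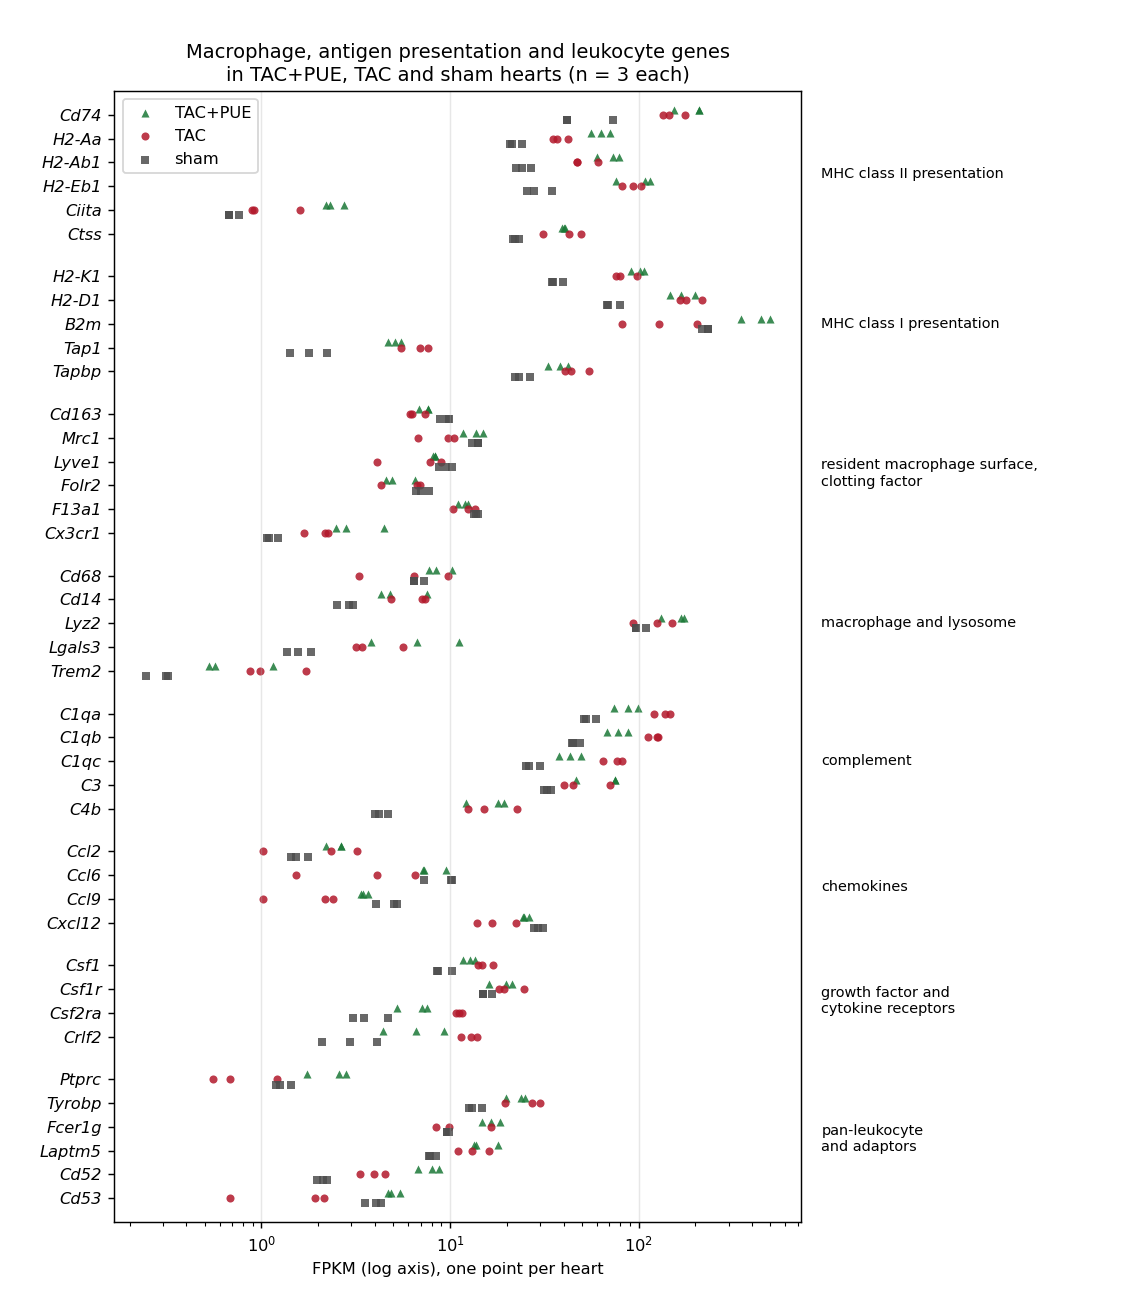
FPKM on a log axis for each of the 41 genes, ordered by role, with 1 point per heart for TAC+PUE (triangles), TAC (circles) and sham (squares). Sham points lie left of the others for most MHC and complement genes, whereas for B2m, Ccl9, Cxcl12 and Cd53 the TAC points lie farthest left, as with B2m at 81.5 to 205 FPKM under TAC and 217 to 234 FPKM in sham.

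The MHC class II genes were all higher under TAC than in sham where they could be tested, and H2-Aa and Ciita were higher again under TAC+PUE. Cd74, the invariant chain that guides class II molecules to the endosome, had 154, 208 and 210 FPKM in TAC+PUE hearts, 135, 145 and 176 FPKM in TAC hearts and 41.9, 72.9 and 41.6 FPKM in sham hearts. Sham 2 stood above the other sham hearts, and the TAC and sham values did not overlap (log2 fold change 1.57 ± 0.21 (SE), adjusted p = 0.000167). TAC+PUE and TAC values of Cd74 overlapped (log2 fold change 0.32 ± 0.18 (SE), adjusted p = 0.184). The gene's level under TAC+PUE was above sham in every library (log2 fold change 1.89 ± 0.23 (SE), adjusted p = 0.00483), and the change was 1.59 (adjusted p = 0.056) without the libraries of Myl7 at 100 FPKM or more, where the 1 TAC+PUE heart left is assumed to vary like the sham hearts.

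H2-Aa, the alpha chain of the class II molecule I-A, had 56.1, 63.5 and 70.5 FPKM in TAC+PUE hearts, 35.0, 36.9 and 42.0 FPKM in TAC hearts and 21.3, 24.1 and 20.8 FPKM in sham hearts. No value of 1 group fell within another, so the groups ran in the order TAC+PUE, TAC and sham. H2-Aa rose in TAC against sham (log2 fold change 0.76 ± 0.12 (SE), adjusted p = 0.000481) and again in TAC+PUE against TAC (log2 fold change 0.72 ± 0.16 (SE), adjusted p = 0.00625). Without the libraries of Myl7 at 100 FPKM or more, with 1 TAC+PUE heart against 2 TAC hearts that give the spread, the change was 0.63 (adjusted p = 0.149). Its partner H2-Ab1, the beta chain, had 60.2, 73.1 and 79.0 FPKM in TAC+PUE hearts, 47.2, 47.4 and 60.6 FPKM in TAC hearts and 24.1, 26.8 and 22.3 FPKM in sham hearts. It rose under TAC (log2 fold change 1.05 ± 0.14 (SE), adjusted p = 0.000151), and its TAC+PUE and TAC values overlapped in TAC+PUE 1 and TAC 3 (log2 fold change 0.44 ± 0.17 (SE), adjusted p = 0.0595). The gene for another class II beta chain, H2-Eb1, had 76.0, 115 and 108 FPKM under TAC+PUE, against 93.6, 82.1 and 103 FPKM under TAC and 27.8, 34.6 and 25.7 FPKM in sham. H2-Eb1 rose under TAC (log2 fold change 1.63 ± 0.15 (SE), adjusted p = 3.47e-05) and did not pass the test in TAC+PUE against TAC (log2 fold change 0.08 ± 0.19 (SE), adjusted p = 0.753), where its value was -0.27 when scaled by median ratios and -0.23 without Gm26917 and Gm42418. Within a library, H2-Aa was 0.738, 0.552 and 0.656 times H2-Eb1 in TAC+PUE hearts, 0.373, 0.450 and 0.409 times in TAC hearts, and 0.765, 0.698 and 0.810 times in sham hearts. All TAC ratios lay below all others.

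Ciita, the coactivator that switches on class II genes, was low, with 2.30, 2.19 and 2.74 FPKM in TAC+PUE hearts, 0.891, 0.915 and 1.60 FPKM in TAC hearts and 0.676, 0.757 and 0.676 FPKM in sham hearts. It was not tested in TAC against sham, because only TAC 3 reached 1 FPKM there, although all TAC values lay above all sham values. Ciita rose under TAC+PUE (log2 fold change 0.69 ± 0.16 (SE), adjusted p = 0.00813), and the groups did not overlap. It met the filter of 1 FPKM there through its TAC+PUE hearts, where it was higher, so this call is not independent of the filter. Cathepsin S (Ctss), which trims the invariant chain in the endosome, had 40.9, 39.2 and 40.1 FPKM in TAC+PUE hearts, 42.9, 31.1 and 49.6 FPKM in TAC hearts and 21.5, 22.1 and 23.1 FPKM in sham hearts. Ctss was higher under TAC than in sham (log2 fold change 0.84 ± 0.16 (SE), adjusted p = 0.00127) and did not pass the test between TAC+PUE and TAC, where the 3 values lay inside the TAC range (log2 fold change -0.01 ± 0.18 (SE), adjusted p = 0.958).

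The wider class II list, 21 genes of which 17 stand in both tables, had 11 higher and 2 lower among 16 tested in TAC against sham, and 5 higher and none lower among 17 tested in TAC+PUE against TAC. H2-DMa and H2-DMb1, which load peptide onto class II molecules, rose under TAC by 0.98 ± 0.14 and 0.78 ± 0.14 on the log2 scale. The 2 that fell under TAC were Nfyb and Nfyc, subunits of the Y box factor NF-Y, at -0.69 ± 0.13 and -0.62 ± 0.17. Both rose in TAC+PUE against TAC, by 0.65 ± 0.15 and 0.67 ± 0.20. Counts of this and the other wider lists are to be read against the shares of all genes given above. H2-Oa, H2-Ob and H2-Eb2 were not analysed here.

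Among the class I genes, the heavy chains and peptide loading proteins were higher under TAC than in sham, and B2m went the other way. H2-K1, a class I heavy chain, had 91.5, 107 and 102 FPKM in TAC+PUE hearts, 79.8, 75.5 and 98.0 FPKM in TAC hearts and 35.2, 39.7 and 34.8 FPKM in sham hearts. H2-D1, the other classical heavy chain here, had 147, 198 and 167 FPKM in TAC+PUE hearts, 178, 165 and 217 FPKM in TAC hearts and 69.1, 79.7 and 68.2 FPKM in sham hearts. Both rose in TAC against sham with no overlap, H2-K1 with log2 fold change 1.18 ± 0.13 (SE), adjusted p = 7.93e-05, and H2-D1 with log2 fold change 1.35 ± 0.14 (SE), adjusted p = 5.85e-05. Neither passed the test in TAC+PUE against TAC, with 0.25 ± 0.16 for H2-K1 (adjusted p = 0.241; -0.10 when scaled by median ratios) and -0.13 ± 0.18 for H2-D1 (adjusted p = 0.577). Scaled by median ratios, H2-D1 was called lower (-0.49, adjusted p = 0.0373). These genes belong to a family of near-identical copies, so the split of reads between them is uncertain.

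B2m, the light chain that every class I molecule shares, had 495, 350 and 448 FPKM in TAC+PUE hearts, 81.5, 129 and 205 FPKM in TAC hearts and 234, 217 and 233 FPKM in sham hearts. TAC+PUE hearts stood highest, sham hearts lay close together, and every TAC heart was below every sham heart. B2m fell in TAC against sham (log2 fold change -0.81 ± 0.27 (SE), adjusted p = 0.0209), a call lost without Gm26917 and Gm42418 (-0.31, adjusted p = 0.246) and without TAC 1 (-0.48, adjusted p = 0.062). It rose in TAC+PUE against TAC (log2 fold change 1.71 ± 0.29 (SE), adjusted p = 0.00352), the largest rise of any member there in the deposited FPKM, and that call held in all 17 alternatives. TAC+PUE was also above sham (log2 fold change 0.90 ± 0.14 (SE), adjusted p = 0.00868).

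Set against the heavy chains of the same library, a ratio that no scaling of the library changes, B2m was 2.08, 1.15 and 1.67 times the sum of H2-K1 and H2-D1 in TAC+PUE hearts. The ratio was 0.316, 0.535 and 0.651 in TAC hearts, and 2.24, 1.82 and 2.26 in sham hearts. Every TAC heart lay below every heart of the other groups. This ratio and the others given were chosen after the values had been seen and are given with no test. The ratio was lowest in TAC 1, the library with the smallest share of mitochondrially encoded mRNAs (2.81%) and the largest share of rRNA-like transcripts (7.49%), and their part in it was not tested.

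**Figure D2:**
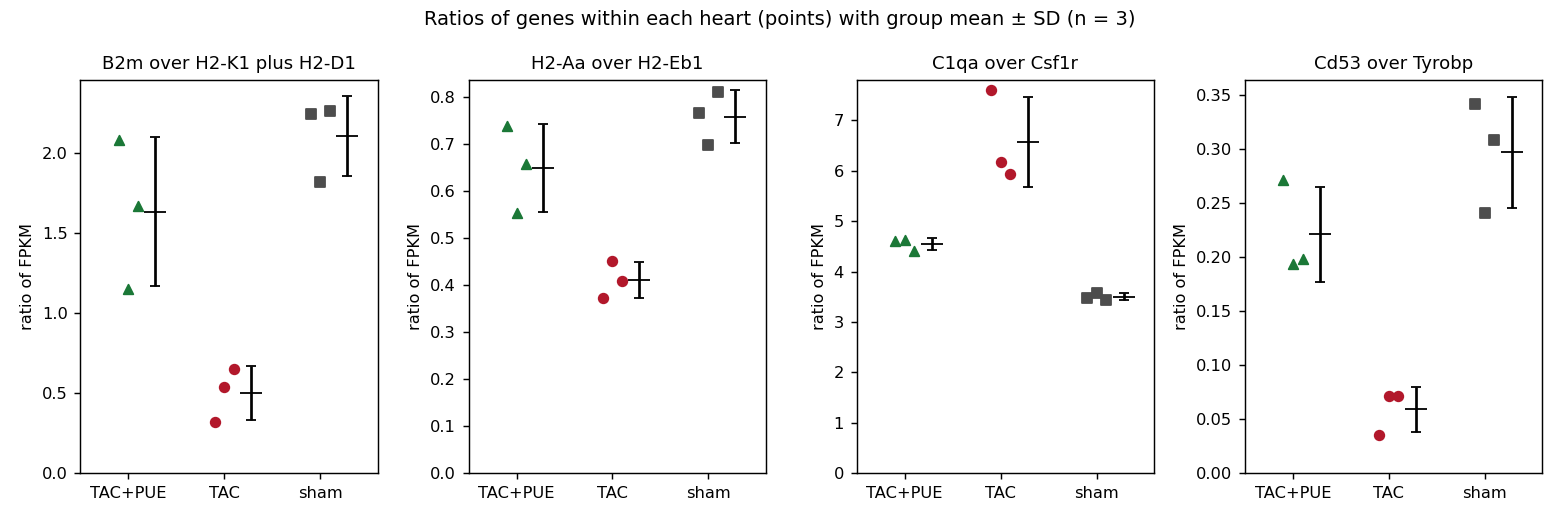
Ratios of FPKM within each heart (points, vertical axes from 0) with group mean ± SD (n = 3) for B2m over H2-K1 plus H2-D1, H2-Aa over H2-Eb1, C1qa over Csf1r, and Cd53 over Tyrobp. TAC hearts lie apart from both other groups in all 4 panels: below them for B2m (0.316 to 0.651), H2-Aa and Cd53, and above them for C1qa (5.94 to 7.60).

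The transporter subunit Tap1, which carries peptides into the endoplasmic reticulum, had 4.69, 5.08 and 5.49 FPKM in TAC+PUE hearts, 6.95, 5.50 and 7.65 FPKM in TAC hearts and 1.79, 2.23 and 1.42 FPKM in sham hearts. Tapasin (Tapbp), which holds the empty class I molecule beside the transporter, had 33.1, 42.2 and 38.2 FPKM in TAC+PUE hearts, 43.6, 40.5 and 54.8 FPKM in TAC hearts and 23.3, 26.7 and 22.1 FPKM in sham hearts. Both were higher under TAC than in sham, Tap1 by 1.45 ± 0.15 (adjusted p = 5.96e-05) and Tapbp by 0.91 ± 0.14 (adjusted p = 0.000372). Tap1 was lower in each TAC+PUE heart than in each TAC heart without passing the test (log2 fold change -0.33 ± 0.16 (SE), adjusted p = 0.115). Tapbp values of TAC+PUE and TAC overlapped (log2 fold change -0.28 ± 0.17 (SE), adjusted p = 0.208). Scaled by median ratios both were called lower (-0.63 each, adjusted p = 0.0131 for Tap1 and 0.0125 for Tapbp), as they were without Gm26917 and Gm42418.

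In the wider class I list, 27 genes of which 24 were tested, 19 were higher and 4 lower in TAC against sham, with a median of 1.02, and 4 were higher and 2 lower in TAC+PUE against TAC. Beside B2m, the genes that fell under TAC were the endoplasmic reticulum aminopeptidase Erap1 (-1.04 ± 0.16) and the chaperones Canx (-0.92 ± 0.12) and Pdia3 (-0.65 ± 0.14). These 4 were also the genes of the list that rose under TAC+PUE, Erap1 by 0.98 ± 0.19, Canx by 0.62 ± 0.15 and Pdia3 by 0.77 ± 0.18. Psmb10, a subunit of the immunoproteasome, rose under TAC by 1.47 ± 0.13 and fell by 0.47 under TAC+PUE. H2-Q1, a class I gene of the Q region, rose under TAC by 1.74 ± 0.15 and fell by 1.50 under TAC+PUE.

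Promoter windows of 300 bases (250 before to 50 after the annotated start, RefSeq, GRCm38.p6) were at hand for 30 of the 41 genes. They are shown for the class I genes, whose heavy chains and light chain moved apart, and for H2-Aa and H2-Eb1, of which H2-Aa alone passed the test in TAC+PUE against TAC. Capitals mark matches on either strand to the Y box ATTGG, the kappa B letters GGGATTCCC and the interferon-stimulated response element (ISRE). No matches overlap each other in these windows. The H2-K1 window (chr17:34000298-34000597, minus strand), the H2-D1 window (chr17:35262844-35263143, plus strand) and the B2m window (chr2:122147437-122147736, plus strand) come first, then H2-Aa (chr17:34287774-34288073, minus strand) and H2-Eb1 (chr17:34305617-34305916, plus strand).
H2-K1: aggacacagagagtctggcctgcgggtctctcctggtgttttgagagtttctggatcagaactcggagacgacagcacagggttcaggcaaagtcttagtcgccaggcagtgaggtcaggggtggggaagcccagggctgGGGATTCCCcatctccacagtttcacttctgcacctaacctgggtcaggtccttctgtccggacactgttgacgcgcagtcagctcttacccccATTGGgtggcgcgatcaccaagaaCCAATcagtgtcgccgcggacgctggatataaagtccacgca
H2-D1: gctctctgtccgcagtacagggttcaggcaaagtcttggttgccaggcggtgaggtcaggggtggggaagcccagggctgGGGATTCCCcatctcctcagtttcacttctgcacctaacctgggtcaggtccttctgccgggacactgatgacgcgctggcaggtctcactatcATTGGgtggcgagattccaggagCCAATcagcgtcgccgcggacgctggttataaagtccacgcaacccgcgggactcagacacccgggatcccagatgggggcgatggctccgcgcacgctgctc
B2m: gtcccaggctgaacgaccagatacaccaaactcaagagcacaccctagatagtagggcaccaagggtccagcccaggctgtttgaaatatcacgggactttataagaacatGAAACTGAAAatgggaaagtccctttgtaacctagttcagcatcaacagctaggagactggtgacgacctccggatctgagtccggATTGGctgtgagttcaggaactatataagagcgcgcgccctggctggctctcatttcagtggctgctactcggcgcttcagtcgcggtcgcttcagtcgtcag
H2-Aa: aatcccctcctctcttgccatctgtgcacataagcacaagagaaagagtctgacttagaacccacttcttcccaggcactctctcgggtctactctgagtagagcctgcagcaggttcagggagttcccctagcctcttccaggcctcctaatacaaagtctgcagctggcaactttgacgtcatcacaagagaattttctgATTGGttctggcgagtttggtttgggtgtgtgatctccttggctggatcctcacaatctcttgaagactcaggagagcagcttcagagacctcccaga
H2-Eb1: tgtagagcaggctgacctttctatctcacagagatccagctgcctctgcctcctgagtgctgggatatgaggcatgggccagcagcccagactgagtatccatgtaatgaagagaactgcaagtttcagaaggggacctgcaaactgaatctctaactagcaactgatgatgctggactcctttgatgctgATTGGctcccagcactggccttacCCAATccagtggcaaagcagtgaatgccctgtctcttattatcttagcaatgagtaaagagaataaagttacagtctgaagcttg

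Over an alignment of the H2-K1 and H2-D1 windows, 218 of 239 aligned bases were identical (91.2%). The share was 184 of 241 (76.3%) for H2-K1 with B2m, 179 of 255 (70.2%) for H2-D1 with B2m and 173 of 249 (69.5%) for H2-Aa with H2-Eb1. Bases set against gaps are left out of these shares. No unrelated promoters were aligned, so the share that unlike windows reach is not known. The kappa B letters stood in H2-K1 and H2-D1 and in none of the other 28 members with a window, and in 0.353% of the 32851 promoters in the table. Letters of the ISRE stood in B2m and Ctss (3.44% of all promoters). Y box letters were in all 5 windows printed and in 16 of 30 members (53.3%), where 37.4% of all promoters hold them. The Ets PU.1 core GAGGAAGT was in C1qc, Cd53, Ctss and F13a1 (3.20% of all promoters), and the X box core CCTAGCAAC was in none of the 30 members (0.804% of all promoters). Only fixed letter patterns were searched, so a site spelled otherwise was not counted, and a window without a match may still hold a variant of the site. Whether the heavy chains and B2m differ in kappa B or ISRE sites was therefore not tested. A match describes the letters of a window and is not evidence of binding.

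Of the resident macrophage genes, Cd163 and Mrc1 fell under TAC, Cx3cr1 rose, and Lyve1, Folr2 and F13a1 did not pass the test. Cd163, the haemoglobin scavenger receptor, had 6.83, 7.65 and 7.64 FPKM in TAC+PUE hearts, 6.15, 6.32 and 7.37 FPKM in TAC hearts and 9.82, 8.83 and 9.81 FPKM in sham hearts. TAC and TAC+PUE values both lay below all sham values. Cd163 fell in TAC against sham (log2 fold change -0.46 ± 0.12 (SE), adjusted p = 0.00663) and was lower in TAC+PUE than in sham (log2 fold change -0.32 ± 0.09 (SE), adjusted p = 0.0427), but the change under TAC was -0.02 without Gm26917 and Gm42418, and the call against sham under TAC+PUE held in 8 of 16 alternatives.

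Mrc1, the mannose receptor, had 14.9, 13.8 and 11.7 FPKM in TAC+PUE hearts, 6.79, 9.80 and 10.5 FPKM in TAC hearts and 14.1, 13.1 and 14.0 FPKM in sham hearts. TAC hearts lay below the other groups, which overlapped each other. It fell in TAC against sham (log2 fold change -0.57 ± 0.15 (SE), adjusted p = 0.00798; -0.11 without Gm26917 and Gm42418) and rose in TAC+PUE against TAC (log2 fold change 0.54 ± 0.18 (SE), adjusted p = 0.0343), a rise called in 11 of 17 alternatives. Cx3cr1, the receptor of the chemokine fractalkine on monocytes and resident macrophages, had 4.48, 2.82 and 2.47 FPKM in TAC+PUE hearts, 1.69, 2.16 and 2.24 FPKM in TAC hearts and 1.22, 1.07 and 1.10 FPKM in sham hearts. It rose in TAC against sham (log2 fold change 0.50 ± 0.11 (SE), adjusted p = 0.00321), and the still higher TAC+PUE values, led by TAC+PUE 1, did not pass the test against TAC (log2 fold change 0.47 ± 0.18 (SE), adjusted p = 0.0665).

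F13a1, the A subunit of clotting factor XIII, was at 11.0 to 12.4 FPKM under TAC+PUE, 10.4 to 13.5 FPKM under TAC and 13.4 to 14.1 FPKM in sham. The hyaluronan receptor Lyve1 was at 8.11 to 8.35 FPKM under TAC+PUE, 4.10 to 8.92 FPKM under TAC and 8.74 to 10.2 FPKM in sham. For the folate receptor Folr2 the ranges were 4.56 to 6.51 FPKM under TAC+PUE, 4.28 to 6.96 FPKM under TAC and 6.58 to 7.71 FPKM in sham. Their log2 fold changes in TAC against sham were -0.18 ± 0.12, -0.46 ± 0.22 and -0.24 ± 0.17, with TAC 1 lowest in each. In the wider list of 18 resident macrophage markers, 8 rose and 3 fell among 15 tested under TAC, and 3 rose and 3 fell among 17 tested in TAC+PUE against TAC. Fcna, a ficolin, rose under TAC (1.27 ± 0.13) and fell under TAC+PUE by 1.25, whereas Selenop, the selenium carrier made by many cell types, fell under TAC by 1.04 and rose under TAC+PUE (1.0 ± 0.20).

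Among macrophage and lysosome genes, Cd14 and Lgals3 were higher under TAC than in sham, and none passed the test in TAC+PUE against TAC. Cd14, the co-receptor for bacterial lipopolysaccharide, had 4.81, 7.59 and 4.29 FPKM in TAC+PUE hearts, 4.84, 7.38 and 7.14 FPKM in TAC hearts and 2.53, 2.90 and 3.05 FPKM in sham hearts (TAC against sham, log2 fold change 0.94 ± 0.16 (SE), adjusted p = 0.000521). Galectin-3 (Lgals3), a lectin of activated macrophages, had 3.83, 11.2 and 6.66 FPKM in TAC+PUE hearts, 3.16, 3.41 and 5.65 FPKM in TAC hearts and 1.37, 1.56 and 1.82 FPKM in sham hearts. It rose under TAC (log2 fold change 0.95 ± 0.18 (SE), adjusted p = 0.00104), and under TAC+PUE it ranged widely, with TAC+PUE 2 highest (log2 fold change 0.63 ± 0.30 (SE), adjusted p = 0.117).

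Lysozyme (Lyz2), which has a close paralog in Lyz1, was the most abundant gene of this role, with 132, 174 and 167 FPKM in TAC+PUE hearts, 93.9, 125 and 151 FPKM in TAC hearts and 96.6, 109 and 96.4 FPKM in sham hearts. It did not pass the test in TAC against sham (log2 fold change 0.27 ± 0.17 (SE), adjusted p = 0.194), and TAC+PUE was above sham (log2 fold change 0.63 ± 0.13 (SE), adjusted p = 0.0194). Cd68, a lysosomal membrane protein used to count macrophages, had 7.69, 10.3 and 8.38 FPKM in TAC+PUE hearts, 3.30, 6.43 and 9.77 FPKM in TAC hearts and 6.41, 6.41 and 7.24 FPKM in sham hearts. TAC 1 was lowest and TAC 3 among the highest, so the TAC values spanned those of sham (log2 fold change -0.13 ± 0.27 (SE), adjusted p = 0.681; the sign turned to 0.30 without Gm26917 and Gm42418). Trem2, a lipid receptor of recruited macrophages, was too low to be tested, at 0.530 to 1.15 FPKM under TAC+PUE, 0.872 to 1.72 FPKM under TAC and 0.243 to 0.320 FPKM in sham. All TAC values and all TAC+PUE values of Trem2 lay above all sham values.

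In the wider list of 26 macrophage genes, all of them in both tables, 9 rose and 6 fell under TAC, and 9 rose and none fell among 25 tested in TAC+PUE against TAC (36% higher, near the 32.9% of all genes). Mpeg1, a pore-forming protein of macrophages, rose by 1.09 ± 0.20 in TAC+PUE against TAC and was at -0.06 ± 0.19 in TAC against sham. Of 20 monocyte and recruited macrophage markers, 3 rose and 1 fell among 9 tested in TAC against sham. In TAC+PUE against TAC, 7 rose and none fell among 13 tested (53.8% higher, where 32.9% of all genes were). The risers there included Spp1 (osteopontin, 1.08 ± 0.14) and Ccr2, the receptor by which monocytes leave the marrow (0.89 ± 0.17). Some of the 13 needed TAC+PUE hearts to reach the filter, so this count is not independent of it. The summed level of these markers was 113 to 147 FPKM under TAC+PUE, 59.2 to 95.1 FPKM under TAC and 58.1 to 61.6 FPKM in sham. Most of that sum came from Ace, Fn1, Thbs1 and Nr4a1, which other heart cells also express, at means of 33.7, 22.6, 22.4 and 17.1 FPKM under TAC+PUE, whereas Ccr2, Ly6c2 and Plac8 averaged 1.83, 1.91 and 1.38 FPKM there.

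All 5 complement members were higher under TAC than in sham, and the 3 C1q chains were lower under TAC+PUE than under TAC. C1qa had 74.0, 98.7 and 87.7 FPKM in TAC+PUE hearts, 138, 120 and 147 FPKM in TAC hearts and 52.3, 59.4 and 51.1 FPKM in sham hearts. C1qb had 68.1, 88.0 and 78.2 FPKM under TAC+PUE, against 127, 112 and 125 FPKM under TAC and 45.1, 49.0 and 44.3 FPKM in sham. C1qc had 37.8, 49.4 and 43.4 FPKM under TAC+PUE, against 81.5, 65.1 and 76.9 FPKM under TAC and 26.2, 29.9 and 25.2 FPKM in sham. These chains form the C1q molecule that opens the classical pathway on antibody or dying cells, and for each of them the TAC+PUE values lay between sham and TAC with no overlap. In TAC against sham the changes were 1.30 ± 0.13 for C1qa, 1.37 ± 0.12 for C1qb and 1.42 ± 0.13 for C1qc (adjusted p = 5.14e-05, 3.17e-05 and 3.9e-05). In TAC+PUE against TAC they fell by 0.64 ± 0.17, 0.63 ± 0.16 and 0.76 ± 0.16 (SE; adjusted p = 0.0134, 0.011 and 0.00612). Without the libraries of Myl7 at 100 FPKM or more, with 1 TAC+PUE heart against 2 TAC hearts that give the spread, the changes were -0.79 for C1qa and -0.80 for C1qb (adjusted p = 0.0735 and 0.0703), and C1qa had an adjusted p of 0.0566 without TAC+PUE 1.

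Within a library, C1qa was 4.60, 4.63 and 4.40 times Csf1r, the receptor that macrophages need to live, in TAC+PUE hearts, 7.60, 6.18 and 5.94 times in TAC hearts, and 3.48, 3.58 and 3.44 times in sham hearts. The ratios did not overlap between groups. C1qa over C1qc was 1.96 to 2.02 under TAC+PUE, 1.69 to 1.92 under TAC and 1.99 to 2.03 in sham, with all TAC ratios below all others.

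C3, on which all complement pathways meet, had 46.7, 75.0 and 74.9 FPKM in TAC+PUE hearts, 44.9, 40.0 and 70.4 FPKM in TAC hearts and 32.7, 34.4 and 31.6 FPKM in sham hearts. TAC 3 lay within the TAC+PUE range, and C3 passed the test in TAC against sham (log2 fold change 0.60 ± 0.19 (SE), adjusted p = 0.0175) and not in TAC+PUE against TAC (log2 fold change 0.34 ± 0.24 (SE), adjusted p = 0.284). C4b, a classical pathway component with a near-identical copy in C4a, had 12.2, 19.4 and 18 FPKM in TAC+PUE hearts, 15.1, 12.4 and 22.7 FPKM in TAC hearts and 4.18, 4.67 and 3.99 FPKM in sham hearts. It rose under TAC (log2 fold change 1.71 ± 0.19 (SE), adjusted p = 6.97e-05), and its mean change in TAC+PUE against TAC was 0.00 ± 0.23.

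In the wider complement list of 26 genes, 6 rose and 8 fell among 19 tested in TAC against sham (31.6% and 42.1%, where 25.3% and 37.7% of all genes did), and 10 rose and 4 fell among 22 tested in TAC+PUE against TAC. The decay-accelerating factor Cd55 fell under TAC by 1.18 ± 0.16 and rose under TAC+PUE by 1.10 ± 0.17. Properdin (Cfp), which stabilises the alternative pathway enzyme, followed C1q, with 1.19 ± 0.15 under TAC and a fall of 0.56 under TAC+PUE.

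**Figure D3:**
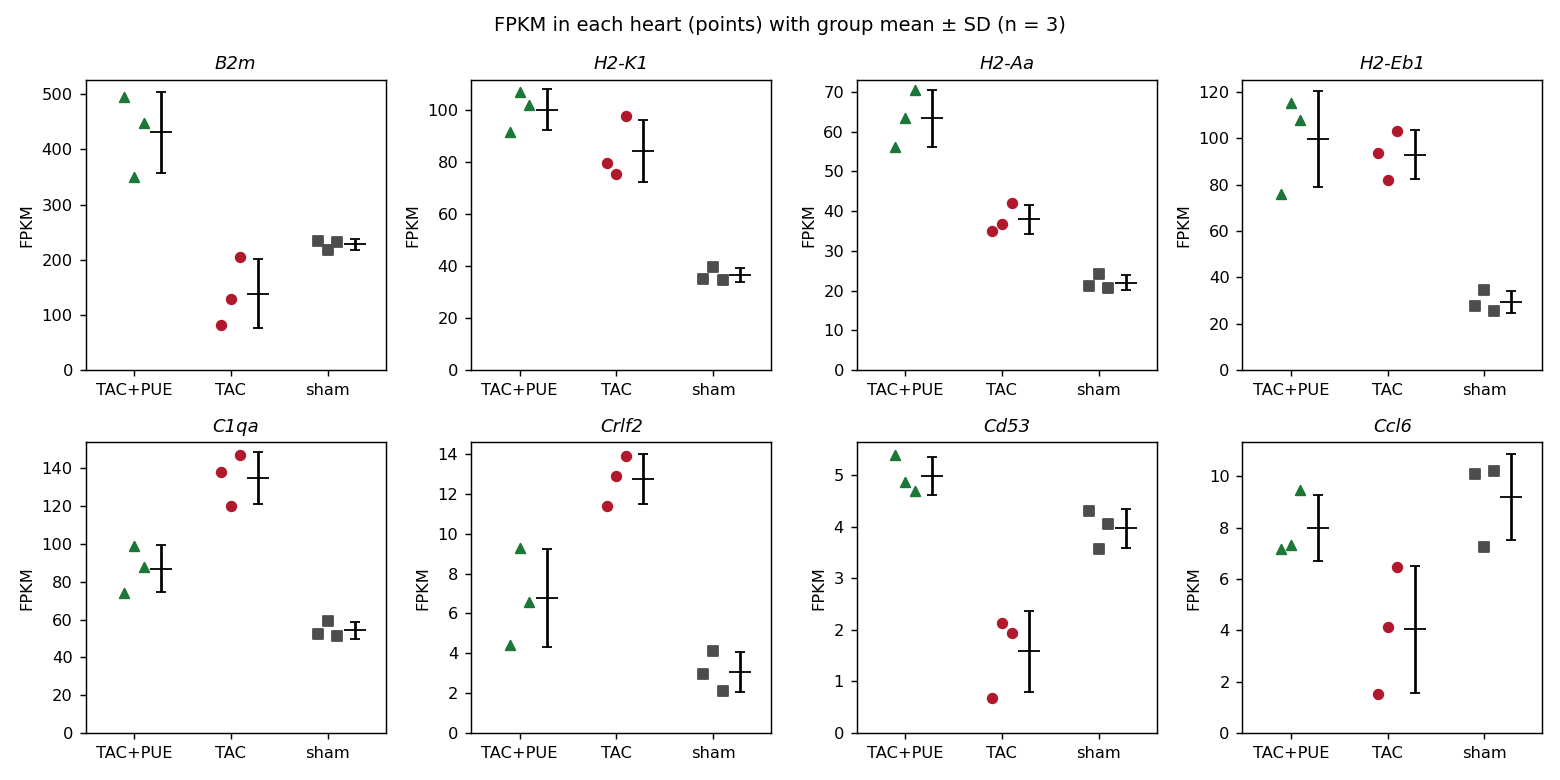
FPKM in each heart (points, vertical axes from 0) with group mean ± SD (n = 3) for 8 of the genes, TAC+PUE, TAC and sham from left to right. C1qa and Crlf2 are highest under TAC, B2m, Cd53 and Ccl6 are lowest under TAC, and H2-K1, H2-Aa and H2-Eb1 are lowest in sham.

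Of the 4 chemokines, Ccl6, Ccl9 and Cxcl12 fell under TAC and rose in TAC+PUE against TAC, and Ccl2 passed neither of these tests but was higher in TAC+PUE than in sham. Ccl6, a CC chemokine of rodents, had 7.17, 7.32 and 9.47 FPKM in TAC+PUE hearts, 1.53, 4.11 and 6.48 FPKM in TAC hearts and 10.1, 7.26 and 10.2 FPKM in sham hearts. TAC 1 was far below the other TAC hearts, and all TAC values lay under all others (log2 fold change -1.14 ± 0.32 (SE), adjusted p = 0.01). Its rise in TAC+PUE against TAC (log2 fold change 0.96 ± 0.32 (SE), adjusted p = 0.0335) was called in 12 of 16 alternatives and lost without TAC 1. Ccl9, a ligand of Ccr1, had 3.66, 3.45 and 3.36 FPKM in TAC+PUE hearts, 1.02, 2.18 and 2.39 FPKM in TAC hearts and 5.06, 4.06 and 5.25 FPKM in sham hearts.

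The groups of Ccl9 ran in the order TAC, TAC+PUE and sham with no overlap. It fell under TAC (log2 fold change -1.05 ± 0.19 (SE), adjusted p = 0.000933) and rose in TAC+PUE against TAC (log2 fold change 0.68 ± 0.19 (SE), adjusted p = 0.018), a rise called in 14 of 16 alternatives and not when scaled by median ratios (0.44, adjusted p = 0.0533) or without Gm26917 and Gm42418 (0.47, adjusted p = 0.0556). Cxcl12, which holds leukocytes and progenitors through Cxcr4, had 26.1, 24.5 and 24.6 FPKM in TAC+PUE hearts, 13.9, 16.7 and 22.4 FPKM in TAC hearts and 29.3, 31.3 and 27.8 FPKM in sham hearts. It fell under TAC (log2 fold change -0.73 ± 0.16 (SE), adjusted p = 0.00274; adjusted p = 0.141 without Gm26917 and Gm42418), and its rise in TAC+PUE against TAC (log2 fold change 0.51 ± 0.18 (SE), adjusted p = 0.0435) was called in 8 of 17 alternatives. Ccl2, which draws monocytes by Ccr2, had 2.20, 2.64 and 2.63 FPKM in TAC+PUE hearts, 1.02, 2.35 and 3.21 FPKM in TAC hearts and 1.76, 1.43 and 1.52 FPKM in sham hearts, with the TAC range spanning both others. TAC+PUE was above sham in every library (log2 fold change 0.44 ± 0.09 (SE), adjusted p = 0.0243), a call made in 8 of 16 alternatives.

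In the wider chemokine list, 7 rose and 4 fell among 19 tested under TAC, and 5 rose and none fell among 18 tested in TAC+PUE against TAC. Those 5 were 27.8%, where 32.9% of all genes rose. The risers under TAC+PUE that are not among the members were Ccl5, a chemokine of T and NK cells (1.39 ± 0.24), and Ccl8, a macrophage chemokine (1.12 ± 0.17). Chemokine receptors had 6 higher and none lower among 9 tested in TAC+PUE against TAC (66.7% higher, where 32.9% of all genes were). In TAC against sham 6 were tested, so some of the 9 needed TAC+PUE hearts to reach the filter. Ackr3, the scavenger receptor of Cxcl12, averaged 23.4 FPKM under TAC+PUE, 11.3 FPKM under TAC and 23.8 FPKM in sham, and so fell under TAC by 1.04 and rose under TAC+PUE by 1.01, as Cxcl12 did in direction.

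All 4 genes of the growth factor and cytokine receptor role rose under TAC, and the receptor chains Csf2ra and Crlf2 fell under TAC+PUE. Csf1, the growth factor on which macrophages depend, had 12.8, 13.6 and 11.7 FPKM in TAC+PUE hearts, 14.0, 14.7 and 16.9 FPKM in TAC hearts and 8.59, 10.2 and 8.54 FPKM in sham hearts. It rose under TAC (log2 fold change 0.68 ± 0.13 (SE), adjusted p = 0.00102), and each TAC+PUE value was below each TAC value without passing the test (log2 fold change -0.24 ± 0.15 (SE), adjusted p = 0.218). Its receptor Csf1r had 16.1, 21.3 and 19.9 FPKM in TAC+PUE hearts, 18.2, 19.4 and 24.8 FPKM in TAC hearts and 15.0, 16.6 and 14.9 FPKM in sham hearts. The rise of Csf1r under TAC was the smallest called rise of the members (log2 fold change 0.39 ± 0.14 (SE), adjusted p = 0.0284) and was lost without TAC 3, without sham 1 or without sham 3.

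Csf2ra, the alpha chain of the granulocyte-macrophage colony-stimulating factor receptor, had 5.26, 7.51 and 7.09 FPKM in TAC+PUE hearts, 10.7, 11.2 and 11.6 FPKM in TAC hearts and 3.50, 4.71 and 3.06 FPKM in sham hearts. Crlf2, which pairs with the interleukin 7 receptor alpha chain to bind thymic stromal lymphopoietin, had 4.40, 9.31 and 6.57 FPKM in TAC+PUE hearts, 11.4, 12.9 and 13.9 FPKM in TAC hearts and 2.95, 4.10 and 2.09 FPKM in sham hearts. For both, TAC hearts lay above all others, and TAC+PUE hearts lay above all sham hearts. Crlf2 had the largest rise of any member under TAC in the deposited FPKM (log2 fold change 1.79 ± 0.18 (SE), adjusted p = 4.79e-05) and the largest fall under TAC+PUE (log2 fold change -0.87 ± 0.22 (SE), adjusted p = 0.0104). For Csf2ra the changes were 1.37 ± 0.14 under TAC (adjusted p = 5.85e-05) and -0.69 ± 0.16 in TAC+PUE against TAC (adjusted p = 0.008). In the wider list of 27 cytokine receptors and ligands, 6 rose and 9 fell among 19 tested under TAC. In TAC+PUE against TAC, 7 rose and 3 fell among 20 tested (35% and 15%, where 32.9% and 5.45% of all genes did). The gene that fell under TAC+PUE beside these members was Il3ra, the interleukin 3 receptor alpha chain, at -0.72 ± 0.16 after 1.20 ± 0.13 under TAC. Il7r, the partner of Crlf2, was not analysed here.

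The pan-leukocyte genes split in direction. Cd53 and Ptprc fell under TAC and rose in TAC+PUE against TAC, Cd52 rose in both, and Tyrobp and Laptm5 rose under TAC and did not pass the test in TAC+PUE against TAC. Cd53, a tetraspanin of leukocytes, had 5.40, 4.86 and 4.69 FPKM in TAC+PUE hearts, 0.682, 2.14 and 1.93 FPKM in TAC hearts and 4.30, 3.56 and 4.06 FPKM in sham hearts. TAC hearts lay below all others, TAC 1 farthest. Cd53 fell under TAC (log2 fold change -1.0 ± 0.21 (SE), adjusted p = 0.00215) and rose in TAC+PUE against TAC (log2 fold change 1.26 ± 0.22 (SE), adjusted p = 0.00367), and both calls held in every alternative in which the gene was tested. Ptprc (CD45), the phosphatase found on all nucleated blood cells, had 2.80, 1.75 and 2.59 FPKM in TAC+PUE hearts, 0.554, 0.679 and 1.21 FPKM in TAC hearts and 1.26, 1.19 and 1.44 FPKM in sham hearts.

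Ptprc overlapped between TAC and sham in TAC 3, and its fall (log2 fold change -0.35 ± 0.14 (SE), adjusted p = 0.0418) was called in 5 of 15 alternatives. Its rise in TAC+PUE against TAC (log2 fold change 0.90 ± 0.18 (SE), adjusted p = 0.00456) held in all alternatives in which it was tested. Among TAC hearts only TAC 3 reached 1 FPKM, so Ptprc met the filter through its sham or TAC+PUE hearts, where it was higher. These calls are therefore not independent of the filter. Cd52, a short surface glycoprotein of leukocytes, had 8.0, 6.76 and 8.77 FPKM in TAC+PUE hearts, 3.35, 3.96 and 4.54 FPKM in TAC hearts and 1.96, 2.13 and 2.23 FPKM in sham hearts. The groups of Cd52 did not overlap, with log2 fold change 0.67 ± 0.13 (SE), adjusted p = 0.00122, under TAC and log2 fold change 0.84 ± 0.16 (SE), adjusted p = 0.00423, in TAC+PUE against TAC.

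Tyrobp (DAP12) and Fcer1g (FcR gamma) are adaptors that pass signals from activating receptors. Tyrobp had 19.9, 25.0 and 23.7 FPKM in TAC+PUE hearts, 19.6, 30.1 and 27.1 FPKM in TAC hearts and 12.6, 14.8 and 13.1 FPKM in sham hearts and rose under TAC (log2 fold change 0.85 ± 0.16 (SE), adjusted p = 0.00103). Fcer1g had 14.7, 16.4 and 18.5 FPKM in TAC+PUE hearts, 8.43, 9.82 and 16.5 FPKM in TAC hearts and 9.82, 9.62 and 9.68 FPKM in sham hearts, and TAC 3 stood well above the other TAC hearts, inside the TAC+PUE range. It passed neither the test of TAC against sham (log2 fold change 0.18 ± 0.20 (SE), adjusted p = 0.447) nor that of TAC+PUE against TAC (log2 fold change 0.52 ± 0.22 (SE), adjusted p = 0.0788). Laptm5, a lysosomal protein of leukocytes, had 13.7, 13.4 and 17.9 FPKM in TAC+PUE hearts, 11.0, 13.1 and 16.0 FPKM in TAC hearts and 7.85, 8.38 and 7.78 FPKM in sham hearts and rose under TAC (log2 fold change 0.66 ± 0.14 (SE), adjusted p = 0.0024). The ratio of Cd53 to Tyrobp within a library was 0.272, 0.194 and 0.198 in TAC+PUE hearts, 0.0349, 0.0712 and 0.0712 in TAC hearts, and 0.342, 0.241 and 0.309 in sham hearts. All TAC ratios were below all others.

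The wider leukocyte list of 31 genes had 15 higher and 4 lower among 30 tested under TAC (50% and 13.3%, where 25.3% and 37.7% of all genes were). In TAC+PUE against TAC, 10 were higher and 1 lower among 30 tested (33.3% and 3.33%), near the 32.9% and 5.45% of all genes. In TAC+PUE against sham, 24 were higher and none lower among 29 tested (82.8% higher, where 14.6% of all genes were). Coro1a (coronin 1A), an actin regulator of leukocytes, rose under TAC by 2.06 ± 0.14 and fell by 0.66 under TAC+PUE, and Cd44, a hyaluronan receptor, rose by 1.05 ± 0.20 under TAC+PUE. Markers of other leukocytes were few and low. Of 17 T cell markers 3 were in both tables, with summed levels of 2.75 to 3.34 FPKM under TAC+PUE, 1.55 to 2.15 FPKM under TAC and 1.28 to 1.52 FPKM in sham. Both T cell markers tested, Cd8b1 and Lck, rose in TAC+PUE against TAC (0.79 ± 0.18 and 0.40 ± 0.14). No T cell marker was tested in TAC against sham, so both needed TAC+PUE hearts to reach the filter. Their rise is therefore not independent of the filter. Of 10 NK cell markers 3 were in both tables, with sums of 9.72 to 13.6 FPKM under TAC+PUE, 3.36 to 7.19 FPKM under TAC and 1.20 to 1.71 FPKM in sham, and of these Ccl5 and Gzmb rose in TAC+PUE against TAC (1.39 ± 0.24 and 0.76 ± 0.23). Among NK cell markers 2 were tested in TAC against sham and 3 in TAC+PUE against TAC, so the filter may bear on these rises too. The part of T and NK cells in the members' levels was not tested. The 11 B cell markers were not analysed here. Of 7 mast cell markers, 2 rose and 1 fell among 3 tested under TAC, and both tested fell in TAC+PUE against TAC. The mast cell proteases Cma1 and Tpsb2 rose under TAC (0.88 ± 0.16 and 0.73 ± 0.12) and fell under TAC+PUE (-1.14 ± 0.20 and -1.08 ± 0.20), whereas the receptor Kit was lower under TAC (-0.37 ± 0.10) and the proteases Mcpt4 and Cpa3, untested, averaged 0.706 and 0.397 FPKM in TAC and 0.703 and 0.501 FPKM in sham. All 6 red blood cell markers tested rose under TAC, with the haemoglobin gene Hba-a1 at 404 to 1350 FPKM under TAC+PUE, 1460 to 1920 FPKM under TAC and 250 to 326 FPKM in sham. The part of blood in the members' levels was not tested. Without the libraries of Myl7 at 100 FPKM or more (TAC+PUE 2, TAC+PUE 3 and TAC 3), 9 of 40 members rose and 3 fell in TAC+PUE against TAC (27.2% and 3.81% of all genes), a setting of 1 TAC+PUE heart against 2 TAC hearts, which give the spread.

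**Figure D4:**
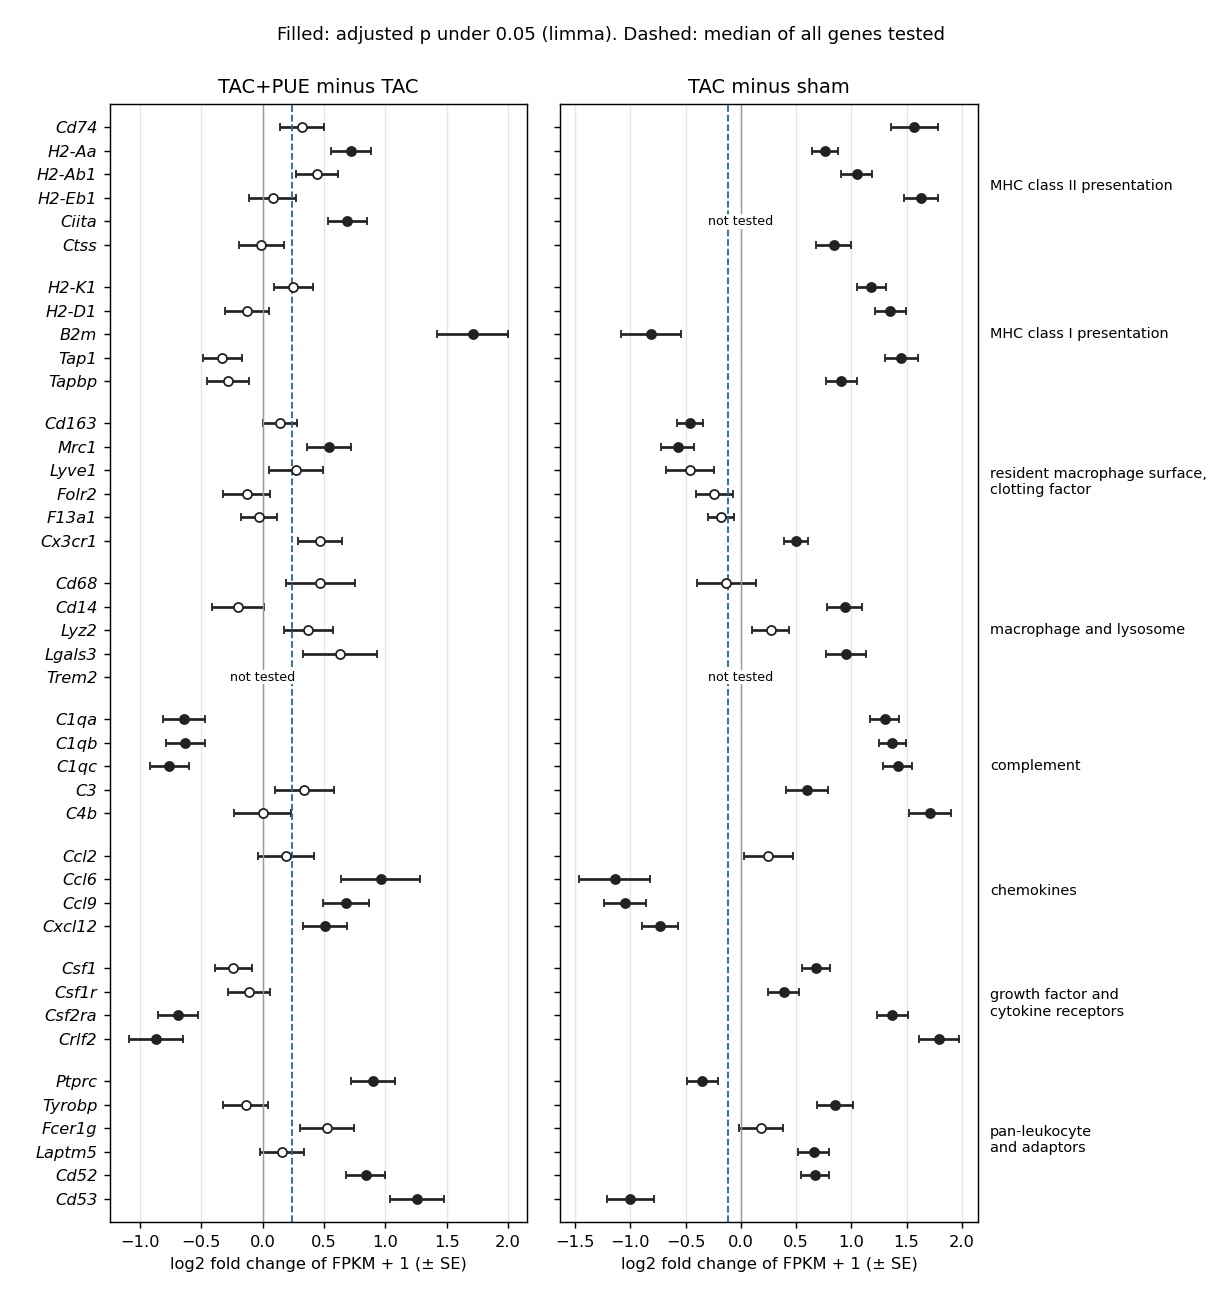
Log2 fold change of FPKM + 1 ± SE for TAC+PUE minus TAC (left) and TAC minus sham (right), by role, filled where the adjusted p (limma) was under 0.05, with the median of all genes tested as a dashed line. The 3 C1q chains, Csf2ra and Crlf2 lie left of 0 in the left panel and right of it in the right panel, whereas B2m, Mrc1, Ccl6, Ccl9, Cxcl12, Ptprc and Cd53 do the reverse, and the TAC hearts enter both panels.

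Of the 28 members higher in TAC+PUE than in sham, the count fell to 17 without sham 1 and to 15 without sham 3, as the calls over all genes did (402 and 361 higher, against 1738 with all libraries).

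The members varied more between TAC hearts than between the hearts of the other groups. The coefficient of variation over 3 hearts had a median over members of 13.6% under TAC+PUE, 21.1% under TAC and 8.20% in sham. TAC 3 was the highest TAC heart for 34 of 41 members (82.9%), where it was the highest for 64.0% of 12222 genes, and TAC 1 was the lowest for 29 of 41 (70.7%, and 70.5% of those genes). Under TAC+PUE, replicate 2 was highest for 22 of 41 members (53.7%, and 40.7% of those genes). The values of the members with TAC 1 lowest include Ccl6, Ccl9, Cd53, B2m, Lyve1 and Cd68, for which TAC 1 was at 1.53, 1.02, 0.682, 81.5, 4.10 and 3.30 FPKM.

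Scaling moved all members together, which changes how many lie past the test and, near 0, their sign. In TAC+PUE against TAC, scaling by median ratios left 6 members higher and 12 lower, and leaving out Gm26917 and Gm42418 left 6 higher and 8 lower, in place of 10 and 5. Over all genes the split moved as well, to 18.2% higher and 22.8% lower when scaled by median ratios, against 32.9% and 5.45% as deposited. Without Gm26917 and Gm42418 it was 19.7% higher and 18.8% lower. In TAC against sham, 30 members were higher and 3 lower without Gm26917 and Gm42418, in place of 24 and 8, and over all genes 49.2% were higher and 20.6% lower in place of 25.3% and 37.7%. In TAC+PUE against TAC, the members called lower by median ratios and not as deposited were H2-D1, Tap1, Tapbp, F13a1, Csf1, Csf1r and Tyrobp. Of these, Tap1, Tapbp and Csf1 were also called lower without Gm26917 and Gm42418. In TAC against sham, Lyz2, Ccl2 and Fcer1g were called higher without this pair (0.77, 0.56 and 0.64) and not as deposited. B2m, Cd53, Ptprc, Cd52, Ciita and H2-Aa rose and C1qa, C1qb, C1qc, Csf2ra and Crlf2 fell in TAC+PUE against TAC under each scaling. Of these, Ciita and Ptprc met the filter in the deposited FPKM through their TAC+PUE hearts.

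**Figure D5:**
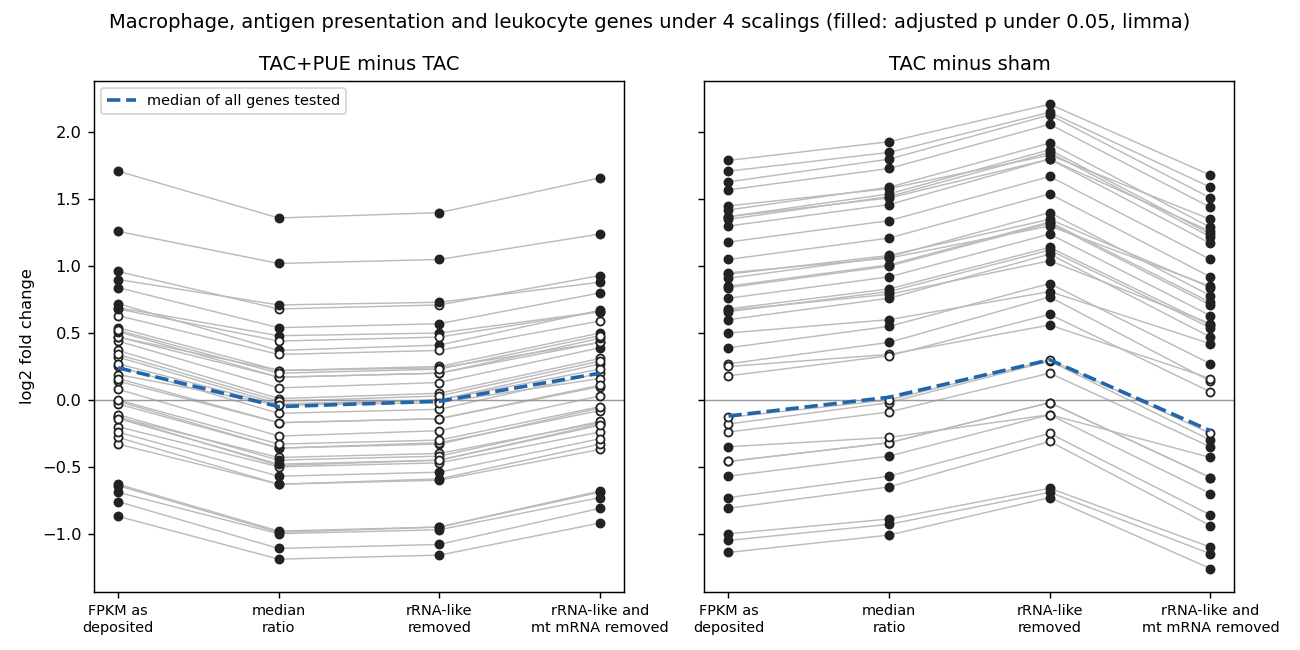
Log2 fold changes of the members (grey lines) for TAC+PUE minus TAC (left) and TAC minus sham (right) under the deposited FPKM, scaling by median ratios, leaving out Gm26917 and Gm42418, and leaving out these and the mitochondrial mRNAs, filled where the adjusted p (limma) was under 0.05, with the median of all genes tested dashed. The lines run in parallel with the median, which is 0.24, -0.05, -0.01 and 0.20 in the left panel.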

How the data were processed

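RNA sequencing libraries of 9 hearts, 3 each of TAC+PUE, TAC and sham, were grouped by the sample labels. The authors made the libraries with a stranded kit, used Hisat2 to align reads, StringTie for assembly and quantification, and Ballgown for expression; the submitters' processing notes name mm9, and the use of strand in counting was not given in the sources used here. The deposited gene values are FPKM computed by the authors, in a TAC+PUE and TAC table (14073 genes) and a TAC and sham table (13853 genes), and TAC values were the same in both (largest difference 0). The study's methods name TPM for transcript levels, whereas the deposited headers name FPKM, and the header's unit was used. FPKM are not counts, so depth is unknown, no counting interval is given, and 3 libraries a group limit the precision. Levels of overlapping or near-identical genes are uncertain. Whether libraries of 1 group are separate mice is taken from the study's methods.

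The 41 members, their roles and 28 wider lists were chosen with earlier results of these data known. Identifiers of all 41 members matched the table of gene names once version numbers were dropped. Tests were run with limma (version 3.58.1, R 4.3.3) and eBayes with trend on log2(FPKM + 1), two-sided, on genes that reached 1 FPKM in 3 or more of the 6 libraries, with Benjamini-Hochberg adjustment over all genes tested (11687, 11788 and 11931) at 0.05, and the code was tested on simulated data. All members are named, with values in each library where a test was passed or the mean was highest in its role. The plan was to name up to 3 genes of each wider list, by size of change past the test and otherwise by mean. More are named for the class I, class II, mast cell and recruited macrophage lists, so naming there did not keep to this rule. Canx was named after its values were seen. Alternatives tried were scaling by median ratios, leaving out Gm26917 and Gm42418 (transcripts like rRNA) alone or together with the mitochondrial mRNAs, pseudocounts of 0.1 and 5, dropping the filter or raising it to 10 FPKM, eBayes with no trend, a joint fit of 9 libraries, a replicate block, leaving out each library, and leaving out libraries of Myl7 at 100 FPKM or more. Promoters are from RefSeq (GRCm38.p6). Ratios and plots used Python 3.11.15 with pandas 2.3.3 and matplotlib 3.10.9.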

Additional observations from a re-analysis of the deposited data

Results flagged for a closer look

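The deposited lists of long non-coding RNAs, which no comparison above uses, hold 2 transcripts of the genes described. Both are among the 408 listed as higher in TAC than sham, so the authors' lists class them as non-coding. H2-K1-204 was at 10.7, 6.10 and 8.86 FPKM in TAC hearts (mean 8.56) and 2.04, 1.70 and 1.35 FPKM in sham hearts (mean 1.70), and Tapbp-202 was at 3.37, 1.47 and 1.28 FPKM in TAC hearts (mean 2.04) and 0.173, 0.142 and 0.262 FPKM in sham hearts (mean 0.193). They were singled out because they are the transcripts of these genes found in lists outside the gene tables. For both, all TAC values lie above all sham values. The authors had selected these lists for differences between the same groups, so no test was made.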

How the results depend on the processing

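With 3 hearts a group and no counts, depth is unknown, and calls near the threshold turn on single hearts or on scaling; beyond the settings' own construction the cause was not tested. Members that fell in TAC against sham numbered 3 of 24 tested with a filter of 10 FPKM (34% of all genes there) and 3 of 41 without Gm26917 and Gm42418 (20.6%), against 8 of 39 as deposited (37.7%). Without this pair, changes there were 0.20 for Folr2, 0.29 for F13a1 and 0.30 for Cd68, and Cd68 was at 0.00 when scaled by median ratios. Leaving out 1 heart in turn gave -0.44 to 0.22 for Cd68 and -0.08 to 0.36 for Fcer1g.

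In TAC+PUE against TAC, members that rose numbered 4 of 25 tested with a filter of 10 FPKM (23.1% of all genes there), against 10 of 40 (32.9%). Scaled by median ratios, 6 rose and 12 fell (18.2% and 22.8% of all genes did). The changes were then -0.03 for Cd74, -0.27 for H2-Eb1, -0.10 for H2-K1, -0.17 for Cd163, -0.04 for Lyve1, -0.01 for C3, -0.33 for C4b, -0.04 for Ccl2 and -0.17 for Laptm5. Without Gm26917 and Gm42418, 6 rose and 8 fell (19.7% and 18.8% of all genes did). The changes were then -0.23 for H2-Eb1, -0.07 for H2-K1, -0.14 for Cd163, 0.00 for Lyve1, -0.30 for C4b, -0.02 for Ccl2 and -0.14 for Laptm5. C4b was at -0.05 without this pair and the mitochondrial mRNAs and 0.00 with a pseudocount of 5. Without the libraries of Myl7 at 100 FPKM or more, which leaves 1 TAC+PUE heart assumed to vary like the 2 TAC hearts, 3 members fell, and the changes were -0.20 for H2-Eb1, 0.16 for Ctss, 0.21 for Folr2 and -0.15 for C4b. Leaving out 1 heart in turn gave -0.03 to 0.26 for H2-Eb1, -0.20 to 0.13 for Ctss, -0.02 to 0.46 for Lyve1, -0.13 to 0.05 for F13a1, -0.18 to 0.23 for C4b, -0.11 to 0.42 for Ccl2 and -0.20 to 0.02 for Csf1r.

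In TAC+PUE against sham, 1 member was lower as deposited (2.7% of all genes were). The count was 2 with a pseudocount of 0.1 (2.75% of all genes), 2 with eBayes without trend (2.74%) and 0 of 23 tested with a filter of 10 FPKM (4.62%). It was 5 when scaled by median ratios (6.4%), 0 without Gm26917 and Gm42418 (1.21%) and 5 without these and the mitochondrial mRNAs (5.97%). When all 9 libraries were fitted jointly it was 0 (1.46%). Mrc1 was at 0.14 without Gm26917 and Gm42418 and 0.11 without the libraries of Myl7 at 100 FPKM or more. Leaving out 1 heart in turn gave 15 to 31 members higher and 0 to 3 lower. Over all genes these settings gave 3.03 to 22.5% higher and 0.335 to 8.54% lower. Mrc1 was at -0.10 to 0.06 in them.

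Same-numbered hearts correlated at -0.02 to 0.06 in TAC against sham, -0.28 to 0.20 in TAC+PUE against TAC and 0.04 to 0.31 in TAC+PUE against sham, so the numbers were not taken to pair hearts. With a replicate block, 24 members rose and 9 fell in TAC against sham (25% and 37.9% of all genes did). In TAC+PUE against TAC, 9 rose and 5 fell (29.2% and 4.58% of all genes). In TAC+PUE against sham, 29 were higher and 2 lower (21.4% and 4.43% of all genes). The setting without libraries of Myl7 at 100 FPKM or more was not run apart for TAC against sham, where it leaves out TAC 3 only.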
